A study of Mus musculus with 9 samples.

Results

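The Hox genes are the homeobox genes of the HoxA, HoxB, HoxC and HoxD clusters, and they were taken as every gene whose symbol is Hox, a cluster letter from a to d and a paralog number. The reference annotation held 39 such genes, and 33 of them were measured by a probe set assigned to 1 gene, among 18194 genes measured in all. The measured members were 9 in HoxA, 9 in HoxB, 7 in HoxC and 8 in HoxD. Of the 6 genes without a value, 2 were covered only by probe sets shared with another Hox gene, and 4 had no listed probe set.

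RNA of 9 mouse mammary samples was hybridised to Affymetrix arrays, with 3 arrays labelled as biological replicas A, B and C in each of 3 groups. LD cells were luminal differentiated cells, sorted as EpCAM high, CD49f low and CD61 negative and profiled freshly purified. Organoids from MaSCs grew from a sorted fraction enriched in mammary stem cells, which was EpCAM low, CD49f high and CD61 positive. Organoids from yMaSCs grew from LD cells that had received doxycycline-inducible lentiviral YAP, a transcriptional coactivator, together with the doxycycline-responsive activator rtTA, and both kinds of organoid were kept in Matrigel with EGF, bFGF, heparin, noggin and R-Spondin1. Per the methods, the donor mice were C57BL/6J virgins aged 8 to 12 weeks unless specified otherwise. The organoids from yMaSCs were passaged without doxycycline per the methods. Fresh or cultured state therefore cannot be told apart from LD or organoid identity, and the comparisons of each kind of organoid with LD cells share the same 3 LD arrays. As the arrays carry RNA of whole populations, fewer cells of a type and less RNA per cell cannot be told apart in any difference below.

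Values are log2 RMA values, a background-corrected, normalized and summarised probe intensity, and a difference of 1 is a doubling. A gene passed the test at an adjusted p under 0.05 in limma, adjusted over all 18194 genes. On the 9 arrays the median probe set lay between 5.11 and 5.15 and the lower quartile between 3.47 and 3.59. Low signal was common among the Hox genes, since 25 of 33 (75.8%) lay under the array median on all 9 arrays, against 32.8% of all genes, and 12 (36.4%) lay under the lower quartile on all arrays, against 12.8%. Yap1, the mouse gene of the factor carried by the vector, lay between 9.69 and 10.21 in LD cells, 10.69 and 10.78 in organoids from MaSCs and 10.46 and 10.71 in organoids from yMaSCs, with no difference between the organoids that passed (adjusted p = 1). Against LD cells Yap1 passed as higher, by 0.75 (adjusted p = 0.00294) in organoids from MaSCs and by 0.65 (adjusted p = 0.00670) in organoids from yMaSCs. Whether the Yap1 probe set also reads the vector's transcript was not tested.

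Hox genes encode transcription factors that give cells along the body axis their positional identity. Within each cluster the genes stand largely in the order of their paralog numbers, and genes with the same number in different clusters are paralogs by descent. Low paralog numbers are used in the hindbrain and anterior trunk and high numbers in the posterior body and the distal limb. Hox proteins bind DNA with partners of the Pbx, Meis and Pknox families, Polycomb proteins keep silent clusters closed, Trithorax proteins keep active ones open, and retinoic acid is a classic inducer of the genes with low numbers. In the mammary gland, adult Hox expression is known in both epithelium and stroma.

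Hoxb2, Hoxb3 and Hoxb4 were the Hox genes that rose in organoids, and they rose in both kinds. These 3 genes are neighbours on mouse chromosome 11 in the reference annotation, in the order Hoxb3, Hoxb4, Hoxb2 by the starts of their annotated spans, and Hoxb4 lies inside the annotated span of Hoxb3, as does the gene of miR-10a, which had no measured probe set here. Because the annotated spans overlap, signal at Hoxb3 and Hoxb4 may not come from separate transcripts. Of the 3 genes, Hoxb4 had a promoter window in the RefSeq table, and it is shown with the window of Hoxb1, the neighbour on the far side of Hoxb2 that did not pass, and of Hoxa5, the member that was lower in both kinds of organoid. Each window covers 300 bases around the start of transcription, most of them upstream, on build GRCm38.p6: Hoxb4 at chr11:96318017-96318316 on the plus strand, Hoxb1 at chr11:96365508-96365807 on the plus strand and Hoxa5 at chr6:52204538-52204837 on the minus strand. Capitals mark matches, on either strand, to TGATNNAT (a Hox and Pbx motif), TGACAG (Meis), GGAATG (TEAD, the partner of YAP), CCAAT (NF-Y) and CACGTG (E-box), and no marked matches overlap in these windows.
Hoxb4: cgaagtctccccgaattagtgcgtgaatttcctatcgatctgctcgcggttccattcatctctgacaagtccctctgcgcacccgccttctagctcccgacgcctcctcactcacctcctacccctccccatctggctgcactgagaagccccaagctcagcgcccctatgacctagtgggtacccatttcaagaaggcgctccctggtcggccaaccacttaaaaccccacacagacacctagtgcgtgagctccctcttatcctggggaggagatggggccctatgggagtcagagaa
Hoxb1: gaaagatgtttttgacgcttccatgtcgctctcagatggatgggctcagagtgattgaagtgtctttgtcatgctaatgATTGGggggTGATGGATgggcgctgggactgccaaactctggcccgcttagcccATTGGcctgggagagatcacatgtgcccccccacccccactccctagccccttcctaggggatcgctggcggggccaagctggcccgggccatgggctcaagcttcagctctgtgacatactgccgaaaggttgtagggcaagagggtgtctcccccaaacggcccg
Hoxa5: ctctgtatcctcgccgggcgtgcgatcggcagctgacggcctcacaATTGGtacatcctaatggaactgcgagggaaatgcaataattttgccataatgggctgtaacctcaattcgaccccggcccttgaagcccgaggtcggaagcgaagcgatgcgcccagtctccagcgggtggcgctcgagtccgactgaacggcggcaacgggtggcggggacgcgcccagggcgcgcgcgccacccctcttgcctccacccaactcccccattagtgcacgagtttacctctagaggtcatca
The Hoxb4 window held no match to the 5 motifs. The Hoxb1 window held 1 TGATNNAT and 2 CCAAT matches, and the Hoxa5 window held 1 CCAAT match. Over all 32851 windows of the table, TGATNNAT occurred in 8.85%, TGACAG in 19.2%, GGAATG in 14.7%, CCAAT in 37.4% and CACGTG in 7.15%. Windows were listed for 19 of the 33 measured Hox genes, 21 windows in all, and of these 3 held TGATNNAT, 2 TGACAG, 2 GGAATG, 12 CCAAT and 4 CACGTG. The windows of Hoxb4, Hoxb1 and Hoxa5 held 14, 10 and 29 CpG dinucleotides, beside a median of 15 over the Hox windows and 7 over all windows. A match describes the letters of the window and was not tested as a binding site.

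Hoxb2, a paralog group 2 gene known from hindbrain patterning, read 6.23, 6.18 and 6.15 in LD cells A, B and C. It read 8.56, 8.43 and 8.60 in organoids from MaSCs and 8.28, 8.41 and 8.29 in organoids from yMaSCs. The LD arrays lay close together (SD 0.04, n = 3) and every organoid array lay above all of them. The difference from LD cells was 2.34 on the log2 scale in organoids from MaSCs, 5.08-fold, with a 95% interval of 2.14 to 2.55 (adjusted p = 2.16e-06). In organoids from yMaSCs it was 2.14, 4.41-fold, with an interval of 1.93 to 2.35 (adjusted p = 2.95e-06). Among all genes, ordered by the size of the increase, Hoxb2 stood at place 328 (organoids from MaSCs) and 415 (organoids from yMaSCs).

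Hoxb3, of paralog group 3, read 6.14, 6.35 and 5.72 in LD cells, 7.43, 7.21 and 7.72 in organoids from MaSCs and 7.21, 7.21 and 7.08 in organoids from yMaSCs. Its LD arrays were spread more widely than those of Hoxb2, with array C lowest, and again no organoid array overlapped them. The difference was 1.38 (2.61-fold, interval 0.97 to 1.80, adjusted p = 0.000445) in organoids from MaSCs. It was 1.10 (2.14-fold, interval 0.68 to 1.51, adjusted p = 0.00164) in organoids from yMaSCs. The increase stood on 1 of the gene's 2 probe sets. The other one read 6.07, 6.28 and 6.21 in LD cells, 6.38, 6.26 and 6.48 in organoids from MaSCs and 6.25, 6.17 and 6.40 in organoids from yMaSCs, so that the groups overlapped. Tested with all probe sets separately, it differed from LD cells by 0.19 (adjusted p = 0.228) and 0.09 (adjusted p = 0.590). Which Hoxb3 transcripts each probe set reads was not tested.

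Hoxb4, known for its use in expanding blood stem cells, read 4.95, 5.22 and 5.26 in LD cells. It read 6.62, 6.48 and 7.02 in organoids from MaSCs and 6.44, 6.40 and 6.54 in organoids from yMaSCs. All organoid arrays again lay above all LD arrays, and the array of organoids from MaSCs with letter C was the highest. The difference was 1.56 (2.96-fold, interval 1.22 to 1.91, adjusted p = 9.10e-05) in organoids from MaSCs and 1.32 (2.49-fold, interval 0.97 to 1.67, adjusted p = 0.000244) in organoids from yMaSCs. Both of its probe sets passed. The second one read 4.09, 4.69 and 4.31 in LD cells, 5.18, 5.36 and 5.53 in organoids from MaSCs and 5.35, 5.04 and 5.04 in organoids from yMaSCs, with differences of 0.99 (adjusted p = 0.00211) and 0.78 (adjusted p = 0.00760).

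**Figure D1:**
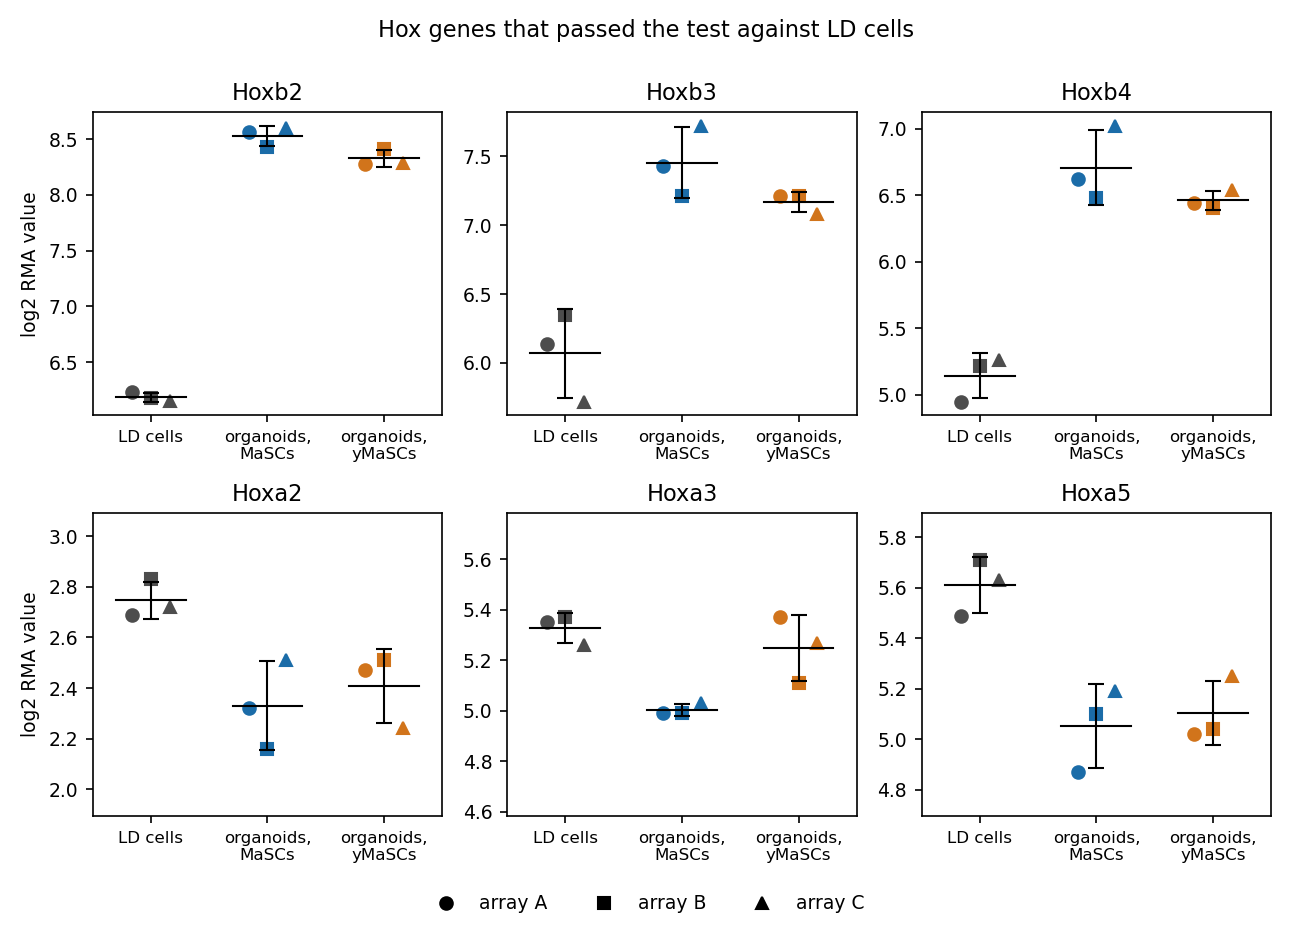
Log2 RMA value (y axis, a range of its own in each panel) of the 6 Hox genes that passed the test against LD cells, by group (x axis); points are single arrays, marked by letter, horizontal lines are means and error bars are SD (n = 3). Hoxb2 lay at 6.15 to 6.23 in LD cells and at 8.28 to 8.60 in organoids, whereas Hoxa5 lay at 5.49 to 5.71 in LD cells and at 4.87 to 5.25 in organoids.

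**Figure D2:**
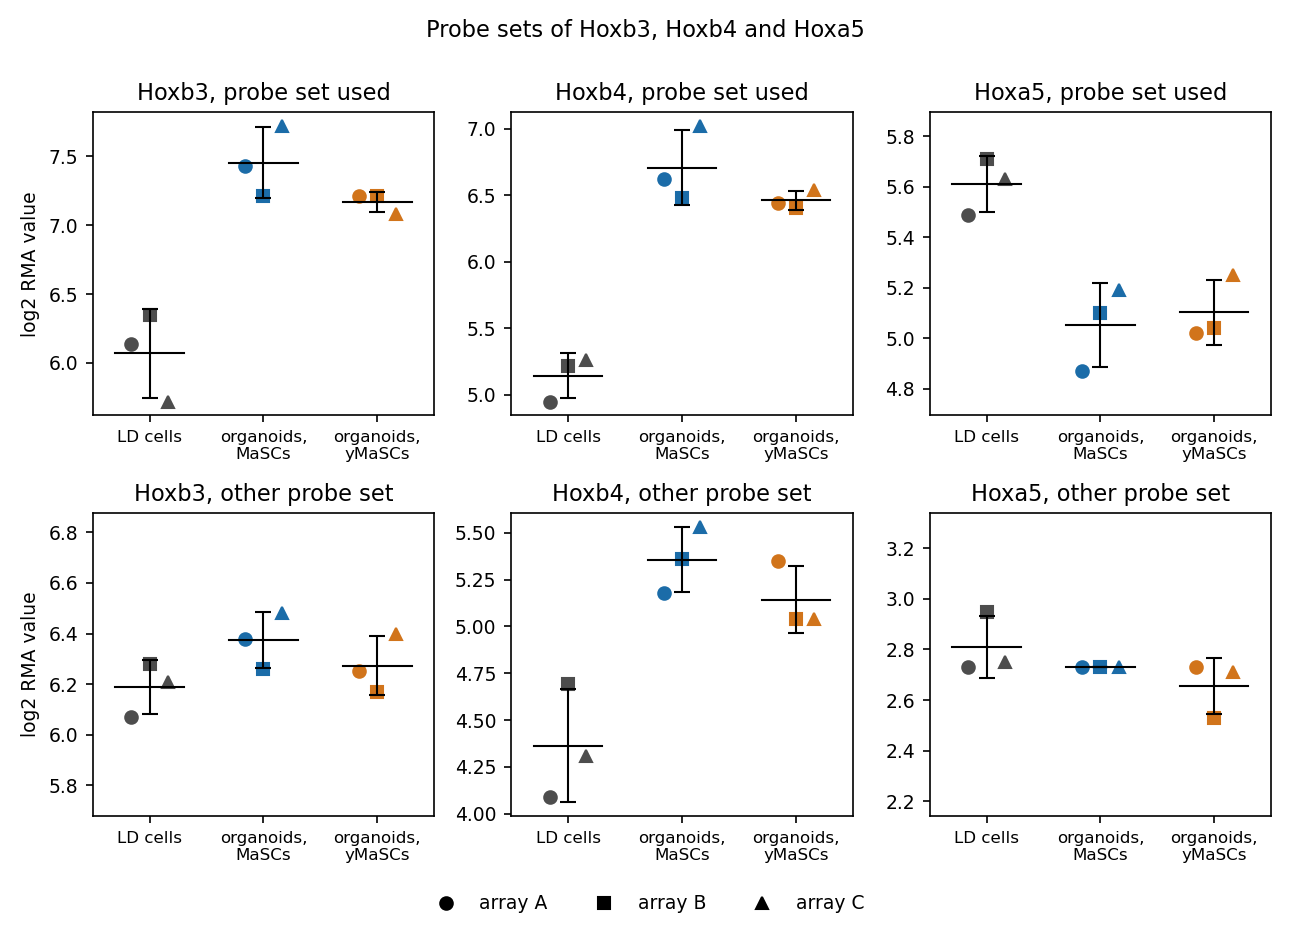
Log2 RMA value (y axis, a range of its own in each panel) of both probe sets of Hoxb3, Hoxb4 and Hoxa5 by group (x axis), with the probe set used for the gene above and the other below; points are arrays, lines are means and error bars are SD (n = 3). Both Hoxb4 probe sets were higher in organoids, while the other Hoxb3 probe set stayed between 6.07 and 6.48 and the other Hoxa5 probe set between 2.53 and 2.95 over all arrays.

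The HoxB genes on both sides of these 3 did not pass. On one side of the 3 genes, Hoxb1 differed from LD cells by 0.04 (interval -0.20 to 0.29) in organoids from MaSCs and by 0.10 (interval -0.15 to 0.34) in organoids from yMaSCs. Its 9 arrays lay between 2.52 and 2.84, under the lower quartile. On the other side, Hoxb5 differed by 0.01 (interval -0.30 to 0.32) in both comparisons, with arrays between 3.05 and 3.42. Both neighbours read at low signal, so a small difference in them was not detectable. A doubling of the array value lay outside their intervals, but whether a doubling of the RNA would show at this level was not tested. Further out, Hoxb6 differed by 0.25 and 0.28, Hoxb7 by -0.06 and -0.04, Hoxb9 by -0.20 and -0.03 and Hoxb13 by -0.13 and -0.08, and none passed. The noncoding Hoxb5os, which the annotation places between Hoxb7 and Hoxb6, read 5.80 to 6.17 in LD cells and 5.97 to 6.41 in organoids, and its differences of 0.23 and 0.29 did not pass (adjusted p = 0.261 in organoids from MaSCs). The genes that flank the cluster did not pass in either comparison, namely Ttll6 and Calcoco2 beyond Hoxb13 and Skap1 and Snx11 beyond Hoxb1, with differences between -0.27 and -0.01.

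**Figure D3:**
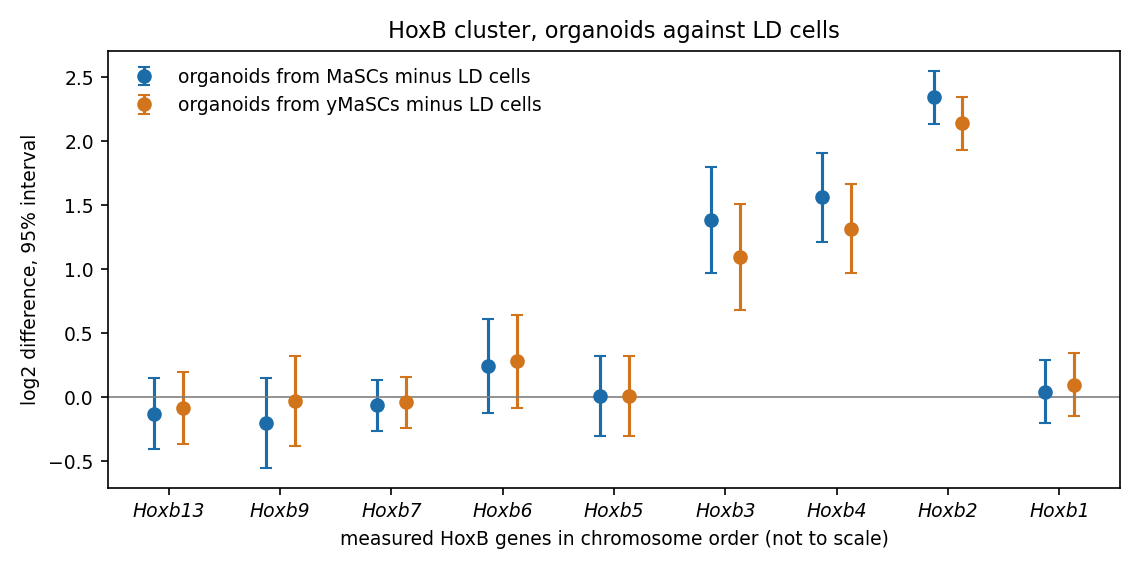
Log2 difference from LD cells (y axis) of the 9 measured HoxB genes in chromosome order (x axis, not to scale), in organoids from MaSCs and from yMaSCs; points are estimates and bars are 95% intervals from limma (3 arrays per group). Hoxb3, Hoxb4 and Hoxb2 lay between 1.10 and 2.34, while the other 6 genes lay between -0.20 and 0.28.

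The HoxA genes that passed ran the other way, and their differences were small. Hoxa5, a paralog group 5 gene known from lung development, fell in both kinds of organoid, and Hoxa2 and Hoxa3, the HoxA paralogs of Hoxb2 and Hoxb3, fell in organoids from MaSCs. Hoxa5 read 5.49, 5.71 and 5.63 in LD cells, 4.87, 5.10 and 5.19 in organoids from MaSCs and 5.02, 5.04 and 5.25 in organoids from yMaSCs. All 6 organoid arrays lay below all LD arrays. It fell by 0.56 (interval -0.83 to -0.28, adjusted p = 0.00640) and by 0.51 (interval -0.78 to -0.23, adjusted p = 0.0106). The other Hoxa5 probe set, near the bottom of the scale, differed by -0.08 (adjusted p = 0.588) and -0.15 (adjusted p = 0.292), and the probe set used carries the suffix that marks possible cross-hybridisation.

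Hoxa2 read 2.69, 2.83 and 2.72 in LD cells, 2.32, 2.16 and 2.51 in organoids from MaSCs and 2.47, 2.51 and 2.24 in organoids from yMaSCs. The groups did not overlap, but all 9 values lay under the lower quartile of their arrays. It fell by 0.42 (adjusted p = 0.0258) in organoids from MaSCs, a call that ended without LD array B or C or organoid array A or B (adjusted p up to 0.0980), and the difference of -0.34 in organoids from yMaSCs did not pass (adjusted p = 0.0590). Hoxa3 read 5.35, 5.37 and 5.26 in LD cells, 4.99, 4.99 and 5.03 in organoids from MaSCs and 5.37, 5.11 and 5.27 in organoids from yMaSCs. Here the organoids from MaSCs lay below LD cells while the organoids from yMaSCs overlapped them. It fell by 0.32 (adjusted p = 0.0280) in organoids from MaSCs, a call that ended without LD array A or B or any 1 array of these organoids (adjusted p up to 0.0857), and the difference of -0.08 in organoids from yMaSCs did not pass (adjusted p = 0.583). None of the other 3 Hoxa3 probe sets passed. The remaining HoxA genes, Hoxa4, Hoxa7, Hoxa9, Hoxa10, Hoxa11 and Hoxa13, did not pass in either comparison and differed by -0.18 to 0.14. Hoxa11os, the antisense RNA of Hoxa11, read 2.85 to 3.06 in LD cells, 2.65 to 2.66 in organoids from MaSCs and 2.66 to 2.79 in organoids from yMaSCs. It fell by 0.29 in organoids from MaSCs (adjusted p = 0.0357), a call that 6 single arrays could end when left out, LD arrays A and B, all arrays of these organoids and array B of the organoids from yMaSCs, while its second probe set differed by 0.01 (adjusted p = 0.963). Among the Hox cluster noncoding RNAs 3 were measured, and the third, Hoxd3os1, differed by -0.07 and 0.06 and did not pass.

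In HoxC and HoxD no gene passed against LD cells in limma, and those with an unadjusted p under 0.05 were Hoxd12 in both comparisons and Hoxc13 in organoids from yMaSCs. The 7 HoxC genes differed by -0.29 to 0.11 in organoids from MaSCs and by -0.23 to 0.30 in organoids from yMaSCs, and the 8 HoxD genes by -0.37 to 0.26 and by -0.36 to 0.24. Hoxc9 was the HoxC gene that did not stay under the array median, with 5.94, 6.12 and 6.02 in LD cells and 5.86 to 5.94 over the 6 organoid arrays. Every HoxD gene stayed under the array median on all 9 arrays. Hoxd9, Hoxd10 and Hoxd12 lay lower in all 6 organoid arrays than in all LD arrays, without passing. Hoxd12 was the closest, with 3.73, 3.73 and 3.58 in LD cells and 3.09 to 3.54 in organoids (differences -0.32 and -0.36, adjusted p = 0.0879 and 0.0632). Hoxd8 read 4.05, 4.72 and 4.42 in LD cells and 3.88 to 4.16 in organoids, and Hoxc10 read 2.85, 3.81 and 2.81 in LD cells and 2.81 to 2.99 in organoids, so that the largest values of both came from LD array B. That array was the highest of the 3 LD arrays for 15 of the 33 Hox genes, LD array C for 9 and LD array A for 6, and ties made up the rest.

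**Figure D4:**
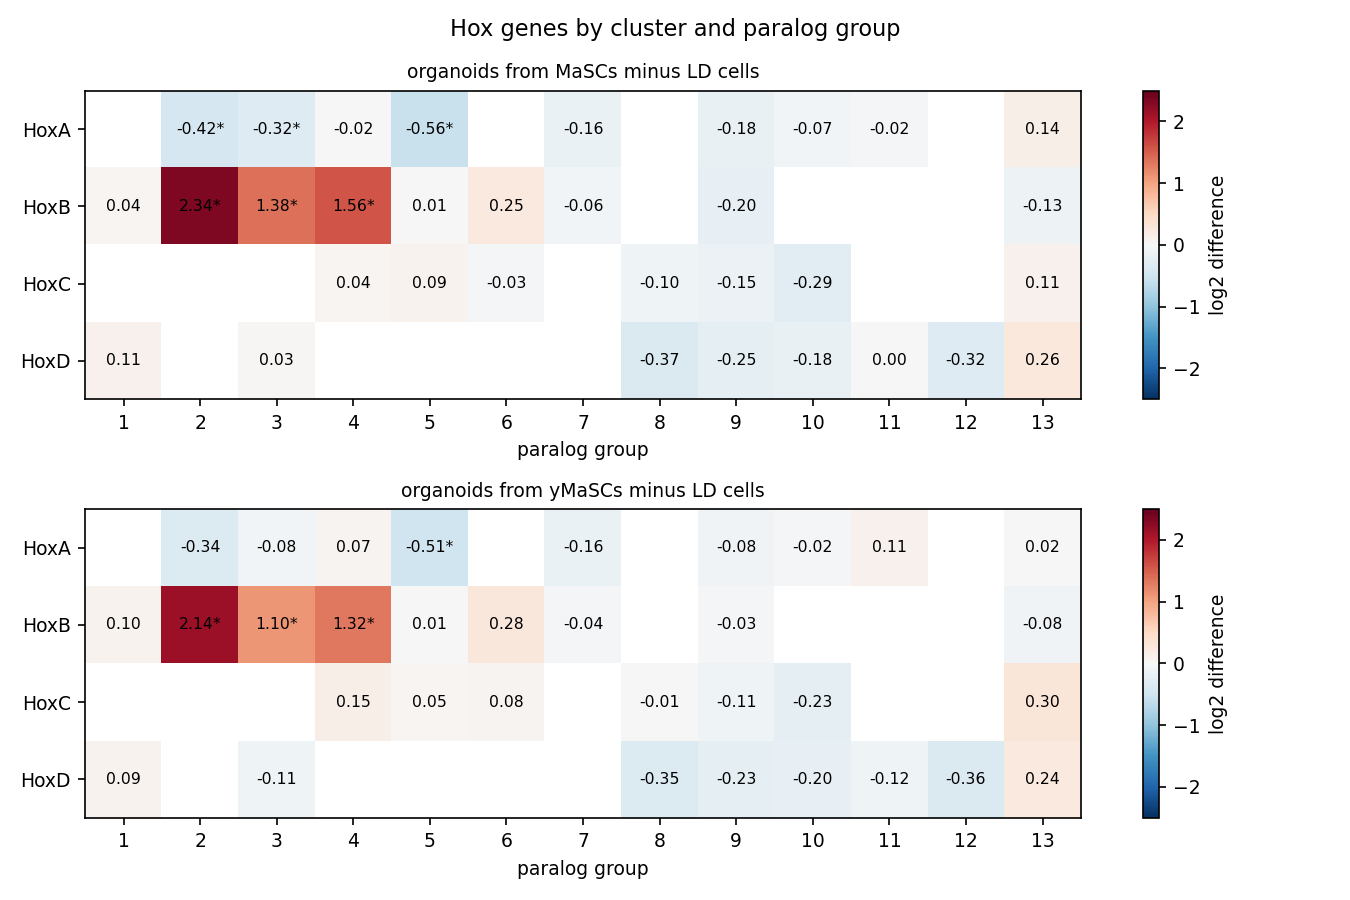
Log2 difference from LD cells (colour and printed value) of each measured Hox gene by cluster (rows) and paralog group (columns), in organoids from MaSCs (top) and from yMaSCs (bottom); asterisks mark an adjusted p under 0.05 in limma, blank cells hold no value. The block of increases covers paralog groups 2 to 4 of HoxB, and the other 30 genes lay between -0.56 and 0.30.

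A smaller share of the Hox genes than of all genes passed. In organoids from MaSCs 3 of 33 Hox genes passed as higher (9.09%), beside 22.1% of all genes tested, and 3 passed as lower (9.09%), beside 15.2%. In organoids from yMaSCs 3 passed as higher (9.09%), beside 21.6%, and 1 as lower (3.03%), beside 14.3%. All 6 organoid arrays lay above all LD arrays for 3 Hox genes, where 23.3% of all genes did so, and below them for 5, or 15.2%, where 17.1% of all genes did so. The median size of the difference, sign aside, was 0.15 over the Hox genes and 0.32 over all genes in organoids from MaSCs, and 0.11 and 0.31 in organoids from yMaSCs. For each of the 30 members outside Hoxb2, Hoxb3 and Hoxb4 the 95% interval lay within a doubling or halving in both comparisons, with outer limits of -0.83 and 0.65. The share of intervals this narrow over all genes was 65.2% and 65.8%. These members read mostly at low signal, and the intervals bound the array value, so a doubling of the RNA at that level was not tested.

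The clusters themselves had medians close to that of all genes. In organoids from MaSCs the median difference was -0.16 over HoxA, 0.04 over HoxB, -0.03 over HoxC and -0.09 over HoxD, beside -0.02 over all genes. In organoids from yMaSCs it was -0.08, 0.10, 0.05 and -0.16, beside -0.01. Under other scalings the medians over HoxB and HoxC changed sign in both comparisons and that over HoxD in organoids from MaSCs, while those over HoxA and that over HoxD in organoids from yMaSCs stayed negative, and no order of the clusters is read from them. By paralog position, the 7 genes of groups 1 to 3 held 2 that rose and 2 that fell in organoids from MaSCs and 2 that rose in organoids from yMaSCs. The 12 genes of groups 4 to 8 held 1 that rose and 1 that fell in both comparisons, and none of the 14 genes of groups 9 to 13 passed in either. Bringing all arrays to a common median lowered organoid values against LD cells by 0.25 (MaSCs) and 0.26 (yMaSCs). On that scale the split of Hox genes went from 3 higher and 3 lower to 3 higher and 13 lower in organoids from MaSCs, and from 3 higher and 1 lower to 3 higher and 11 lower in organoids from yMaSCs. Quantile normalization of the gene values gave 3 higher and 5 lower and 3 higher and 3 lower. Under the common median Hoxb2, Hoxb3 and Hoxb4 still passed, at 2.10, 1.14 and 1.32 in organoids from MaSCs and 1.88, 0.84 and 1.06 in organoids from yMaSCs.

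Between the organoids from yMaSCs and those from MaSCs no Hox gene passed, and neither did any other gene (0% of 18194). At an unadjusted p under 0.05 there were 104 genes, of which 1 was a Hox gene, Hoxa3. Since replicas with the same letter varied together across the organoids, the comparison was repeated on the organoids alone with the letter as a block, and 0 genes passed there too, with 597 genes, 1 of them Hox, at an unadjusted p under 0.05. The differences of the 33 Hox genes ran from -0.29 to 0.25, and their 95% intervals lay within -0.70 and 0.61, so differences smaller than these bounds remain possible. Hoxb2, Hoxb3 and Hoxb4 were nominally lower in organoids from yMaSCs, by estimates of -0.20 (interval -0.41 to 0.01), -0.29 (interval -0.70 to 0.13) and -0.25 (interval -0.60 to 0.10). These intervals come from the fit without a block. With the letter as a block they were -0.435 to 0.028, -0.632 to 0.059 and -0.508 to 0.015. Within letters A, B and C the difference was -0.28, -0.02 and -0.31 for Hoxb2, -0.22, 0.00 and -0.64 for Hoxb3 and -0.18, -0.08 and -0.48 for Hoxb4, smallest in letter B for each gene.

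Organoids of letter C differed from those of letters A and B in 10.8% of all genes. Among the Hox genes 1 passed, Hoxd13, a gene of the distal limb and genital tract. It read 3.63, 3.60 and 3.94 in organoids from MaSCs and 3.48, 3.60 and 4.01 in organoids from yMaSCs, beside 3.53, 3.25 and 3.60 in LD cells. The difference of 0.40 stood at the threshold (adjusted p = 0.0496) and was lost when any 1 of the 6 organoid arrays was left out. For Hoxb2, Hoxb3 and Hoxb4 letter C differed by 0.03, 0.14 and 0.30, and none passed.

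Among the DNA-binding partners of Hox proteins, genes passed in both directions. Of 8 measured cofactors 3 passed as higher and 1 as lower in organoids from MaSCs, and 3 as higher and 2 as lower in organoids from yMaSCs, where over all genes 22.1% and 15.2% did so in the first comparison and 21.6% and 14.3% in the second. With 1 array left out, 2 to 3 passed as higher in the first comparison and 1 to 3 in the second. Pbx3, a TALE homeodomain partner that binds DNA jointly with Hox proteins, read 5.52, 6.36 and 5.53 in LD cells, 6.98, 6.89 and 6.90 in organoids from MaSCs and 6.73, 6.95 and 6.51 in organoids from yMaSCs. It rose by 1.12 (adjusted p = 0.00411) and 0.93 (adjusted p = 0.0109), on a probe set whose suffix marks possible cross-hybridisation. Pbx2 read 7.69, 6.44 and 7.86 in LD cells, 8.46 to 8.78 in organoids from MaSCs and 8.31 to 8.57 in organoids from yMaSCs, with LD array B standing low. It rose by 1.26 (adjusted p = 0.0146) and 1.08 (adjusted p = 0.0300), and without LD array B by 0.82 (adjusted p = 0.00260) and 0.64 (adjusted p = 0.00876). In organoids from yMaSCs the call ended without any 1 of their own arrays (adjusted p up to 0.0782). With all probe sets tested separately, another Pbx2 probe set rose by 0.80 in both comparisons (adjusted p = 0.0302 and 0.0304). A further one rose by 0.87 in organoids from MaSCs (adjusted p = 0.0333). Its difference of 0.68 in organoids from yMaSCs did not pass (adjusted p = 0.0832). Pknox2 rose by 0.84 and 0.90, from 4.19 to 4.51 in LD cells to 4.71 to 5.64 in the organoid arrays, on 1 of its probe sets, and the call ended without LD array B or C or organoid array A or C in organoids from MaSCs and without LD array C or organoid array C in organoids from yMaSCs (adjusted p up to 0.0790). Its relative Pknox1, which pairs with Pbx proteins, read 7.88, 8.69 and 7.95 in LD cells and 7.10 to 7.44 in organoids, and it fell by 0.80 (adjusted p = 0.0148, and 0.0522 without array A of the organoids from MaSCs) and 0.87 (adjusted p = 0.0105). With all probe sets tested separately, another Pknox1 probe set fell by 0.44 and 0.40 (adjusted p = 0.0199 and 0.0318). A further one differed by -0.28 and -0.17 and did not pass (adjusted p = 0.152 and 0.369). Meis1 read 6.75, 5.89 and 6.26 in LD cells, 5.89, 5.82 and 6.23 in organoids from MaSCs and 5.27, 5.59 and 5.37 in organoids from yMaSCs. It fell by 0.89 in organoids from yMaSCs (adjusted p = 0.0112), and its difference of -0.32 in organoids from MaSCs did not pass (adjusted p = 0.284). The difference between the organoids themselves did not pass either. Meis2, Meis3 and Pbx4 did not pass, with differences of -0.23 to 0.00. Tested with all probe sets separately, another Meis2 probe set fell by 0.44 in organoids from MaSCs (adjusted p = 0.0350), and it differed by -0.33 in organoids from yMaSCs (adjusted p = 0.0983).

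**Figure D5:**
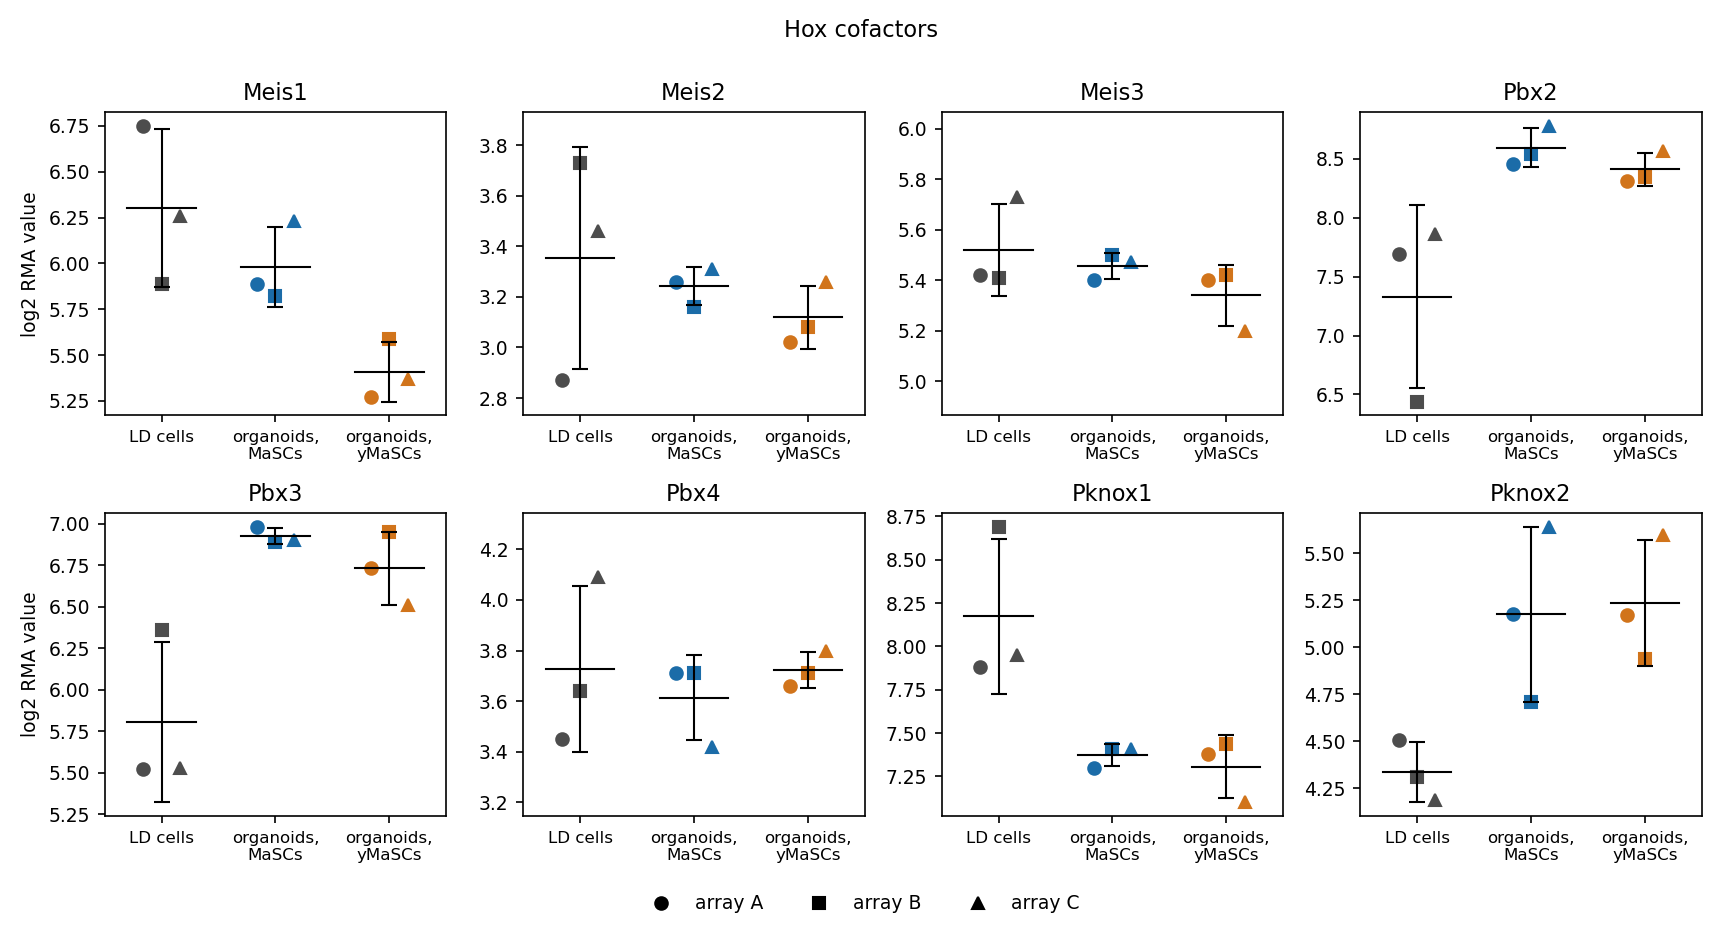
Log2 RMA value (y axis, a range of its own in each panel) of the 8 measured Hox cofactors by group (x axis); points are single arrays, marked by letter, horizontal lines are means and error bars are SD (n = 3). Pbx3 and Pknox1 lay apart from LD cells in opposite directions in all 6 organoid arrays, and the LD value of Pbx2 in array B, 6.44, lay below the other LD values of 7.69 and 7.86.

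Chromatin regulators of the clusters were read from 2 lists, Polycomb and Trithorax. Of 18 measured Polycomb genes 9 passed as higher and 1 as lower in organoids from MaSCs, and 8 as higher and 2 as lower in organoids from yMaSCs, with a median difference of 0.48 and 0.47, beside -0.02 and -0.01 over all genes and the all-gene shares of 22.1% and 21.6% higher and 15.2% and 14.3% lower. Cbx6, a chromodomain subunit of Polycomb repressive complex 1, rose by 3.61 (adjusted p = 3.95e-06) and 3.35, from 6.87, 7.48 and 7.11 in LD cells to 10.36 to 10.95 in the organoid arrays. Its relatives Cbx7 and Cbx8 rose by 1.28 and 1.12 in organoids from MaSCs, although the call of Cbx7 ended without LD array A or C or organoid array A or B (adjusted p up to 0.103), and Ezh1, a histone H3 lysine methyltransferase, rose by 1.02. Phc2 fell by 0.80. With 1 array left out, the number of Polycomb genes that passed as higher ran from 5 to 9 in each comparison, and without LD array B it was 6 and 7. Among the core enzymes and subunits of the complexes, Eed rose by 0.47 and 0.56 (adjusted p = 0.0311 and 0.0144) and Rbbp4 by 0.48 and 0.40 (adjusted p = 0.0189 and 0.0417), whereas Ezh2, Suz12 and Rnf2 did not pass. The Eed calls ended without any 1 of 4 arrays (adjusted p up to 0.115) and without array A of the organoids from yMaSCs (0.0508). The Rbbp4 calls ended without any 1 of 2 arrays (adjusted p up to 0.0767) and of 8 arrays (up to 0.1405). The probe sets used for Cbx6, Phc2, Suz12 and Rbbp4 carry suffixes that mark possible cross-hybridisation. Of 12 Trithorax genes and histone demethylases that oppose Polycomb, 4 passed as higher and 2 as lower in both comparisons, and 3 and 2 as higher without LD array B, against all-gene shares of 22.1% and 21.6% higher and 15.2% and 14.3% lower. Kdm6b, a demethylase of the Polycomb mark, fell by 2.51 and 2.66, from 11.01 to 11.31 in LD cells to 8.27 to 8.91 in the organoid arrays. Men1, a subunit of the Kmt2a complex, rose by 1.04, Dpy30 rose by 0.57 and Wdr5 fell by 0.65 in organoids from MaSCs, whereas Kmt2a itself did not pass.

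Of 16 genes of the retinoic acid pathway 2 passed as higher and 5 as lower in organoids from MaSCs, and 3 as higher and 6 as lower in organoids from yMaSCs; with 1 array left out, 3 to 5 and 4 to 5 passed as lower. Over all genes 15.2% and 14.3% passed as lower and 22.1% and 21.6% as higher. Of the measured enzymes that make retinoic acid, Aldh1a3 and Rdh10 fell, while Aldh1a1 (0.41 and 0.27) and Aldh1a2 (-0.18 and -0.11) did not pass. Aldh1a3 read 11.41, 12.84 and 11.14 in LD cells and 8.82 to 10.40 in the organoid arrays and fell by 2.40 (adjusted p = 0.00926) and 2.35. Rdh10 oxidises retinol, and it fell by 1.68 and 1.72. The receptor gene Rarb, itself a known retinoic acid target, read 3.15, 3.79 and 3.77 in LD cells and 4.55 to 5.10 in the organoid arrays and rose by 1.27 (adjusted p = 0.00134) and 1.30. Rxra, its partner receptor, rose by 1.35 and 1.28. The receptor gene Rarg fell by 0.48 and 0.49 and passed in both comparisons, while Rara and Rxrb did not pass. Rxrg fell by 0.46 in organoids from yMaSCs alone (adjusted p = 0.0484), a call that ended without any 1 of 8 arrays (adjusted p up to 0.146). Cyp26a1, which degrades retinoic acid and is another known target, read 4.31, 4.95 and 4.86 in LD cells, 5.15, 6.20 and 7.27 in organoids from MaSCs and 6.23, 5.94 and 7.47 in organoids from yMaSCs, and it passed in organoids from yMaSCs (1.84, adjusted p = 0.0284) but not in those from MaSCs (adjusted p = 0.0604). The former call ended without LD array A or C or organoid array A or C (adjusted p up to 0.0893). None of the 3 Cdx genes, which encode upstream activators of posterior Hox genes, passed in limma, with differences of -0.22 to 0.00.

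The neighbours of the clusters that passed lay beside HoxA, HoxC and HoxD. Of 14 measured neighbours 7 passed as higher and 2 as lower in organoids from MaSCs, and 6 as higher and 2 as lower in organoids from yMaSCs. Without LD array B, 5 passed as higher and 2 as lower in organoids from MaSCs. In organoids from yMaSCs 5 then passed as higher and 0 as lower. The shares over all genes were 22.1% and 21.6% as higher and 15.2% and 14.3% as lower. Next to Hoxc4, Smug1, a DNA repair glycosylase, rose by 1.40 (adjusted p = 4.16e-05) and 1.41, and Cbx5, which encodes the heterochromatin protein HP1 alpha, rose by 0.95 and 0.98, while Hoxc4 itself differed by 0.04 and 0.15 and did not pass. Calcoco1 at the other end of HoxC rose by 1.18, and Skap2 beside HoxA rose by 0.83. Evx2, the homeobox gene beside Hoxd13, fell by 0.36 (adjusted p = 0.0277) and 0.34 (adjusted p = 0.0347), at 4.76 to 5.03 in LD cells and 4.45 to 4.63 in organoids, but the first call ended without LD array A or organoid array A or B (adjusted p up to 0.100) and the second without any 1 of 7 arrays, all but LD array C and array C of the organoids from MaSCs (adjusted p up to 0.112), while Evx1 beside Hoxa13 did not pass. Among 16 homeobox genes outside the clusters, 4 passed as higher and 1 as lower in organoids from MaSCs, and 3 as higher in organoids from yMaSCs, beside 22.1% and 21.6% of all genes as higher and 15.2% and 14.3% as lower. Irx1, an Iroquois family gene, rose by 2.40 and 2.33, from 8.23 to 9.02 in LD cells to 10.91 to 11.18 in organoids, and Irx2 rose by 1.95 and 1.87. Irx5 rose by 0.38 in organoids from MaSCs and Cux1 by 0.49. Msx1 was the one that fell, by 0.39. The calls of Irx5 and Msx1 in organoids from MaSCs ended without LD array B or C or organoid array A or C, that of Irx5 also without either organoid array B (adjusted p up to 0.132 and 0.104).

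Markers of other cells were read beside the all-gene shares of 22.1% and 21.6% higher and 15.2% and 14.3% lower. The level of a list in an array is given here as the median over its genes of the value minus that gene's mean over the 9 arrays. Of 10 basal and myoepithelial markers 6 passed as higher in organoids from MaSCs and 7 in those from yMaSCs, none lower, and the level ran from -2.15 to -1.42 in LD cells, 0.22 to 2.26 in organoids from MaSCs and 0.37 to 1.52 in organoids from yMaSCs. Array C stood highest for these markers in both kinds of organoid, at 2.26 beside 0.37 and 0.22 (organoids from MaSCs) and at 1.52 beside 0.75 and 0.37 (organoids from yMaSCs). In organoids from MaSCs array C was also the highest for Hoxb2 (8.60 beside 8.56 and 8.43), Hoxb3 and Hoxb4. In organoids from yMaSCs it was the highest for Hoxb4, the lowest for Hoxb3 (7.08 beside 7.21 and 7.21) and below array B for Hoxb2 (8.29 beside 8.41). Without both organoid arrays of letter C the differences of Hoxb2, Hoxb3 and Hoxb4 were 2.31, 1.25 and 1.41 in organoids from MaSCs. In organoids from yMaSCs they were 2.16, 1.14 and 1.28, and all passed. The remaining organoid arrays, of letters A and B, still had basal marker levels of 0.22 to 0.75, above those of LD cells. Leaving out letter C therefore does not set the basal markers apart from the Hox differences. Of 9 luminal markers 2 passed as higher and 5 as lower in both. Elf5 rose by 2.78 and 2.73 and Gata3 by 1.52 and 1.25. Esr1 fell by 2.13 and 2.33 and Krt19 by 2.10 and 1.81. Krt8 also passed as lower, by 0.93 and 0.90, at 14.13 to 14.26 in LD cells and 13.14 to 13.48 in organoids. Of 7 immune markers 6 and 5 passed as lower (3 and 4 without LD array B), with Ptprc, the pan-leukocyte antigen, at 8.17 to 8.94 in LD cells and 2.64 to 2.99 in organoids, so that immune transcripts were present on the LD arrays. Of 7 fibroblast markers 1 passed as higher and 3 as lower in both, and of 6 endothelial markers Vwf passed as lower in both. Of 4 adipocyte markers none passed, and 1 passed as lower in both comparisons without LD array B. LD array B stood highest for the stromal lists. The level was 1.79 for fibroblast markers beside 0.13 and 0.62, and 2.30 for endothelial markers beside -0.10 and -0.04. Of the adipocyte markers, Fabp4 read 10.92 on that array beside 4.20 and 3.70. The others, Adipoq, Lep and Cidec, read 2.71 to 3.62 over the LD arrays. With LD array B left out, or any other single array, the increases stayed between 2.31 and 2.39 for Hoxb2, 1.21 and 1.52 for Hoxb3 and 1.41 and 1.68 for Hoxb4 in organoids from MaSCs, and all 3 passed each time. The number of Hox genes that passed as lower in organoids from MaSCs went from 3 to 1 without LD array B. The part of the basal, stromal and immune markers in the Hox differences was not tested.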

How the data were processed

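Total RNA of 9 mouse mammary samples was extracted with Trizol, labelled as biotinylated cRNA and hybridised to Affymetrix arrays. The deposited values are log2 expression values per probe set that the authors obtained by RMA per the labels, and the sources used here give no version of it. The table holds 45101 probe sets, of which 34958 were assigned to 1 gene, 932 to several and 9211 to none in the platform annotation; 0 value columns belonged to other samples. Symbols were updated through RefSeq (34754 probe sets matched). Each gene was represented by the probe set of 1 gene with the highest mean over the 9 arrays, giving 18194 genes. Levels were not compared between probe sets.

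Differences were tested with limma 3.58.1 in R 4.3.3 (lmFit and eBayes, 3 groups, 9 arrays, no block), with Benjamini-Hochberg adjustment over all genes and a threshold of 0.05. The script was checked on simulated data. Replicas carry letters, which were tested as pairs: deviations from the group means correlated at r = 0.607, 0.611 and 0.649 between organoids of the same letter, and at -0.046 to 0.045 between LD cells and organoids. The letter therefore entered as a block in the comparison of the organoids alone, and over all arrays as an alternative. Precision is limited by the number of arrays.

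The Hox genes, gene lists and tests were chosen with earlier results of these data known. All Hox genes were members; values in every array were given for those that passed against LD cells. The measured cofactors, the cluster noncoding RNAs and up to 4 passing genes per list were also named, with array values, ranges or differences. Other genes were named for their place beside a cluster or for a contrast in the text, after their values were seen. Promoter windows and gene order came from RefSeq (GRCm38.p6). Alternatives covered probe set choice, low-signal filter, scaling, prior, array weights, block and omitted arrays.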

Additional observations from a re-analysis of the deposited data

How the results depend on the processing

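The number of Hox genes that passed as higher stayed at 2 or 3 against LD cells in all 23 alternatives for each kind of organoid; it was 2 when the genes tested were restricted to those above the median signal, which left Hoxb2 and Hoxb3 among the Hox genes. Over its alternatives Hoxb2 ran from 2.08 to 2.39 (organoids from MaSCs) and from 1.88 to 2.17 (organoids from yMaSCs), Hoxb3 from 0.79 to 1.52 and from 0.59 to 1.24, lowest with the mean of its probe sets, and Hoxb4 from 1.28 to 1.68 and from 1.05 to 1.38, and all passed each time. The lower counts were less steady. In organoids from MaSCs the count of 3 became 0 among genes above the median signal, 13 with a common median, 5 with quantile normalization and 0 with a 2-fold change asked for, and 1 to 4 with 1 array left out. In organoids from yMaSCs the count of 1 became 2 with the letter as a random replicate block, 2 when probe sets of a gene were averaged, 0 without probe sets marked for cross-hybridisation, 0 among genes above the median signal, 11 with a common median, 3 with quantile normalization, 3 with a trended and robust prior and 0 with a 2-fold change asked for, and 1 to 2 with 1 array left out. With the letter as a fixed replicate block over all arrays the counts were 3 and 1. Hoxd13 in letter C passed with the trended and robust prior; the count was 0 with the mean of all probe sets, without probe sets marked for cross-hybridisation, among genes above the median signal, with a common median, cyclic loess, quantile normalization, all probe sets tested separately, array weights or a 2-fold change asked for, and 0 each time 1 organoid array was left out; that last alternative, and leaving out arrays for the gene lists, were chosen after seeing the data. The count between the organoids stayed at 0 in its 24 alternatives. The cause of these shifts was not tested. The HoxB median lay between -0.20 and 0.16 for organoids from MaSCs and between -0.16 and 0.20 for the others. Low signal limits what can be seen in the 25 Hox genes under the array median.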
